A study of Triticum turgidum subsp. durum with 32 samples.

Results

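In the first of 2 experiments on *PHYC*, leaf transcript levels of *phyC*-null wheat were set against those of its wild-type sister line, and the 8 libraries of that experiment, 4 per genotype, are described here out of 32 in the series. Of 150754 loci in the count table, the 77398 that reached 3 reads in 2 or more of these 8 libraries entered the test. Both genotypes are in the tetraploid spring wheat Kronos, whose A and B genomes carry separate copies (homoeologues) of most genes, and the *phyC*-null line carries induced loss-of-function alleles in both *PHYC* copies, while the wild-type sister line carries functional copies. Plants grew under long days, and the third leaf was taken in the morning, once fully extended. The 2 experiments ran in separate growth chambers, so experiment and chamber cannot be told apart, and each genotype is 1 line, so the null alleles cannot be told apart from other segments in which the sister lines differ. Loci of chromosome 1B and its unplaced scaffolds are counted apart from the rest.

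Phytochromes are red and far-red light receptors that switch between an inactive and an active form. In long-day grasses, among them wheat and barley, phytochrome C is needed for long days to speed flowering. There, long days act through the pseudo-response regulator gene *PPD1*, which promotes expression of *FT1*, the gene of the mobile flowering signal made in leaves. *FT1* in turn promotes the MADS-box gene *VRN1*, which marks the change of the shoot apex to flowering.

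The libraries held between 25666957 and 27926101 counted reads in *phyC*-null and between 24034955 and 25507558 in wild type. The 100 most abundant loci took 22.7 to 27.0% of the reads in *phyC*-null and 25.6 to 34.5% in wild type, and the median-of-ratios size factors were 1.09 to 1.30 in *phyC*-null and 0.785 to 0.918 in wild type. Wild-type replicate 2 lay farthest from its own group, with a root mean square deviation of 0.593 on the log2 scale, against 0.209 to 0.282 in the 4 *phyC*-null libraries and 0.343 to 0.440 in the other wild-type libraries. As a check of the tissue, the transcript of the photosystem II W subunit had 1013, 1588, 1529 and 1273 normalized counts in *phyC*-null and 1819, 2385, 1421 and 2228 in wild type. The listed transcript of the photosystem II 10 kDa polypeptide was low in 7 libraries and stood at 327 in *phyC*-null replicate 1. *CAB-like-A*, also listed as a leaf marker, averaged only 41.7 ± 8.54 in *phyC*-null and 31.4 ± 6.34 in wild type. None of the 3 listed leaf markers passed the test, and only the W subunit was abundant in all libraries. *PHYB-A* (346 ± 17.7 and 309 ± 52.8 normalized counts in *phyC*-null and wild type, mean ± SD, n = 4) and *PHYA-A* (38 ± 8.35 and 23 ± 7.71), which encode a light-stable and the light-labile phytochrome, did not pass the test (adjusted P = 0.563 and 0.153). No name or description used here marks the *PHYC* transcripts, so the targeted gene was not analysed here.

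At an adjusted P of 0.01 (edgeR quasi-likelihood test), 1273 loci differed between the genotypes, which is 1.64% of those tested. Transcript levels were higher in *phyC*-null at 559 loci (0.722%) and lower at 714 (0.923%). Higher loci changed more, with a median log2 fold change of 2.15, against -1.38 for lower loci, and 1061 of the 1273 changed at least 2-fold. At 1264 of them the 4 *phyC*-null and 4 wild-type normalized counts did not overlap, as at 11623 of all loci tested (15%). How many loci passed depended on single libraries: 593, 476, 606 and 452 passed without *phyC*-null replicate 1, 2, 3 and 4, and 831, 3726, 1070 and 563 without wild-type replicate 1, 2, 3 and 4, and 403 of the 1273 passed in all 8 fits that left out a library. Scaling to library totals alone moved the median of all expressed loci from -0.04 to 0.32 on the log2 scale and made 85.4% of 2291 called loci higher in *phyC*-null, against 43.9% in the fit with scaling factors.

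Most listed flowering genes differed between the genotypes, and more of them were lower than higher in *phyC*-null. The flowering genes that the study tabulated for both phytochrome mutants, with *PPD-A1* added here and 2 loci for 1 transcript, gave 15 tested loci. Of these, 10 were lower, 3 were higher and 2 did not pass. Their median log2 fold change was -3.57, against 0.01 over all loci tested. The study describes *PPD-A1* as lower in both mutants, but not as one of its high-confidence genes. It chose the tabulated genes partly on these same libraries, so their direction is not independent evidence. In whole leaves, fewer cells of a type and less RNA per cell cannot be told apart.

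*FT-A1* (7A:19125373-19127182) had 0.769, 1.67, 1.84 and 0.883 normalized counts in *phyC*-null and 230, 530, 302 and 788 in wild type. Its log2 fold change was -8.37 ± 0.54 (SE, adjusted P = 4.67e-06). *FT-B1*, on a scaffold of 7BS (1 to 1386), had 1.54, 4.18, 0.918 and 1.77 in *phyC*-null and 307, 175, 401 and 374 in wild type (log2 fold change -7.13 ± 0.40, adjusted P = 1.73e-06). Both copies of the leaf flowering signal were thus close to 0 in every mutant library and at 175 or more in every wild-type library. *FT-B3*, a related gene on a 1BL scaffold (817 to 2747) that the study listed for *phyC*-null alone, had 5.38, 11.7, 6.43 and 3.53 in *phyC*-null and 105, 88.3, 68.5 and 19.1 in wild type (log2 fold change -3.35 ± 0.50, adjusted P = 0.003). Its lowest wild-type library, replicate 4, was the one nearest the mutant values, and *FT-B3* did not pass when any 1 of 3 *phyC*-null libraries was left out (adjusted P of 0.0132 to 0.0173).

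The MADS-box genes that act at the change to flowering followed the same direction. *VRN-A1*, on a 5AL scaffold (1212 to 11288), had 213, 375, 288 and 212 normalized counts in *phyC*-null and 2819, 4142, 2630 and 4148 in wild type (log2 fold change -3.66 ± 0.24, adjusted P = 5.61e-06). *VRN-B1* (5B:223505210-223509905) had 59.2, 130, 86.3 and 74.2 in *phyC*-null and 956, 770, 1048 and 1388 in wild type (-3.57 ± 0.26, adjusted P = 1.21e-05). The 2 homoeologues differed in level, with more reads at *VRN-A1*, and had nearly the same log2 fold change. *FUL-A2* (2A:50358178-50365368), a relative of *VRN1*, had 0, 7.52, 0.918 and 0.883 in *phyC*-null and 271, 321, 328 and 902 in wild type (-7.53 ± 0.66, adjusted P = 5.97e-05). Another *VRN1*-like locus, Traes_5BL_5D2D22E67 on a 5BL scaffold, which was picked after its values were seen and which the study's tables describe as a MADS-box 14 protein, averaged 4.71 ± 3.13 in *phyC*-null and 278 ± 218 in wild type (-5.85 ± 0.61, adjusted P = 2.24e-04).

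Among photoperiod and clock genes, the largest change was at *PPD-B1* (2B:17854421-17855928), which had 43.1, 124, 151 and 41.5 normalized counts in *phyC*-null and 2511, 2253, 2234 and 1838 in wild type (log2 fold change -4.62 ± 0.39, adjusted P = 4.27e-05). Its homoeologue *PPD-A1* (2A:12373758-12382018) had 584, 595, 658 and 534 in *phyC*-null and 1132, 262, 1095 and 357 in wild type (-0.26 ± 0.39, adjusted P = 0.748). The mutant values of *PPD-A1* lay inside a wild-type range in which replicates 2 and 4 were low and replicates 1 and 3 were high, so the copies of this photoperiod gene differed in what could be seen, with *PPD-B1* separated by genotype and *PPD-A1* spread mainly within wild type. *GI-B*, a clock output gene, averaged 234 ± 39.7 in *phyC*-null and 606 ± 104 in wild type (-1.37 ± 0.17, adjusted P = 0.00102). *PRR95-A*, a clock gene of the same family as *PPD1* that the study listed for *phyC*-null alone, had 350, 397, 357 and 448 in *phyC*-null and 1493, 1404, 1558 and 1107 in wild type (-1.84 ± 0.15, adjusted P = 3.00e-05).

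**Figure D1:**
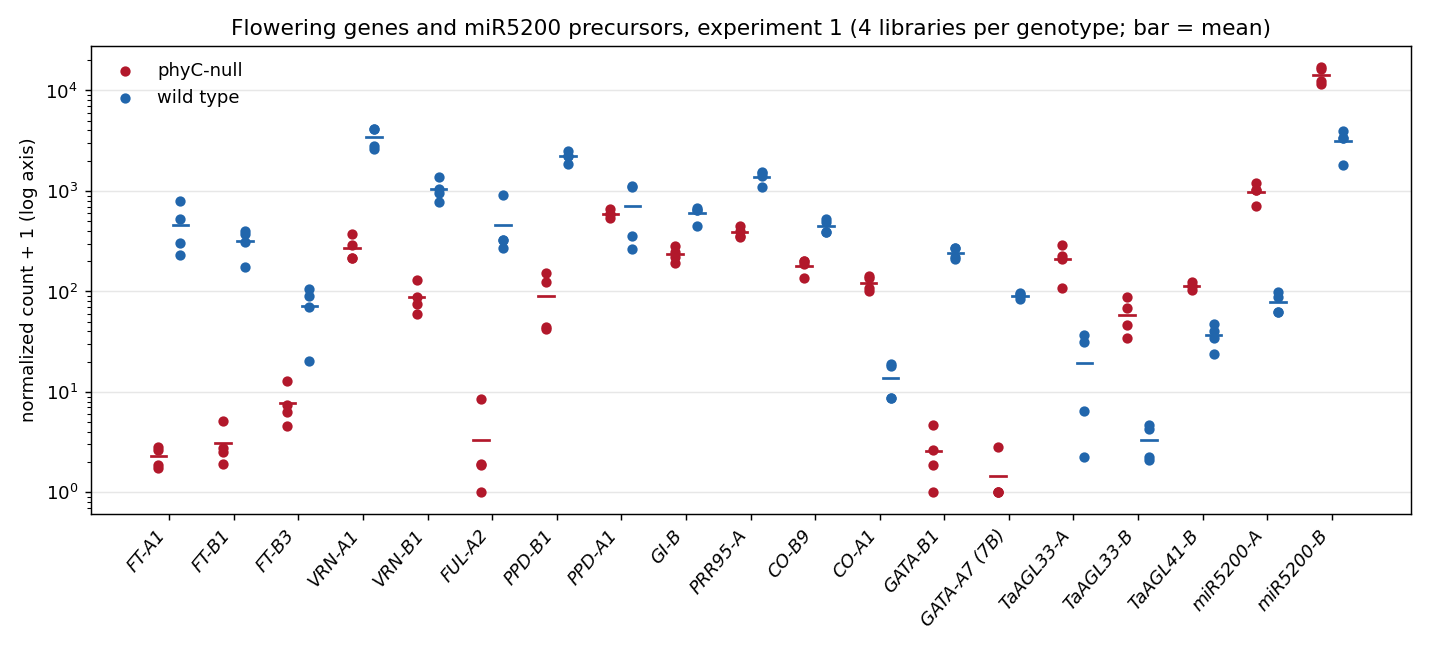
Normalized counts plus 1 (log axis) of 19 flowering loci and miR5200 precursors in each library of experiment 1, with 4 *phyC*-null libraries left of 4 wild-type libraries per gene and a bar at each mean. Before 1 is added, *FT-A1* is below 2 in all mutant libraries and at 230 or more in all wild-type libraries, while the *PPD-A1* values of the genotypes overlap.

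*CONSTANS*-like and GATA-type zinc-finger genes moved in both directions. *CO-A1* (7A:52996030-52998689) had 141, 100, 136 and 108 normalized counts in *phyC*-null and 17.3, 7.63, 18.0 and 7.64 in wild type (log2 fold change 3.25 ± 0.29, adjusted P = 6.90e-05). *CO-B9*, on chromosome 1B (1B:165326828-165328559), averaged 180 ± 30.6 in *phyC*-null and 444 ± 69.1 in wild type (-1.31 ± 0.17, adjusted P = 0.00135). *GATA-B1*, also on 1B (1B:194528194-194530657), had 0, 1.67, 3.67 and 0.883 in *phyC*-null and 272, 267, 210 and 222 in wild type (-7.23 ± 0.39, adjusted P = 1.52e-06). The transcript that the study named *GATA-A7* matched 2 loci, and nearly all of its reads lay at the one on 7B, with 0, 0, 1.84 and 0 in *phyC*-null and 92.4, 95.9, 88.7 and 82.8 in wild type (adjusted P = 5.61e-06). The 7A locus of that transcript had at most 8.91 in any library and did not pass (adjusted P = 0.0618). Because both *GATA-B1* and *CO-B9* lie in the stretch of 1B where called loci were dense, their place is given with their values.

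MADS-box genes of another branch were higher in *phyC*-null. *TaAGL33-A* and *TaAGL33-B* are related to *ODDSOC2*, a repressor of flowering in barley. *TaAGL33-B* (4B:311453947-311457248) had 86.1, 45.1, 33.0 and 67.1 normalized counts in *phyC*-null and 3.70, 3.27, 1.12 and 1.27 in wild type (log2 fold change 4.56 ± 0.46, adjusted P = 1.85e-04). *TaAGL33-A* (5A:139186521-139188979) had 291, 223, 108 and 208 in *phyC*-null and 35.7, 5.45, 30.3 and 1.27 in wild type (3.5 ± 0.57, adjusted P = 0.00488), and it missed the threshold when any 1 of 3 *phyC*-null libraries was left out (adjusted P of 0.0195 to 0.0203). *TaAGL41-B* (3B:687779192-687809924), listed for *phyC*-null alone, averaged 113 ± 8.64 in *phyC*-null and 35.7 ± 10.1 in wild type (1.66 ± 0.22, adjusted P = 0.00128). All 3 groups of 4 mutant values lay above the wild-type values.

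Precursors of miR5200, a grass microRNA that targets *FT1* transcripts, were higher in *phyC*-null on both genomes. The miR5200-A precursor, on a 7AS scaffold, had 1021, 1198, 1017 and 710 normalized counts in *phyC*-null and 61.6, 61, 98.8 and 87.9 in wild type (log2 fold change 3.67 ± 0.22, adjusted P = 2.78e-06). The miR5200-B precursor (7B:3426367-3430392) had 17056, 16214, 12572 and 11562 in *phyC*-null and 3947, 3365, 3332 and 1799 in wild type (2.21 ± 0.23, adjusted P = 2.56e-04). The miR5200-B values were above the miR5200-A values in both genotypes, whereas the log2 fold change was larger for miR5200-A. Of 4 microRNA precursor loci tested, the other 2 did not pass: miR156g-A averaged 213 ± 27.4 in *phyC*-null and 137 ± 32.2 in wild type (adjusted P = 0.0627), and miR393b-A averaged 4.94 ± 3.39 in *phyC*-null and 13.7 ± 3.72 in wild type (adjusted P = 0.0932).

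Genes that the study listed for *phyB*-null alone mostly did not pass here. No locus passed of 24 hormone genes, 10 transcription factor genes and 8 growth and cell elongation genes tested, against 1.64% of all loci. Of these 42, 19 had an unadjusted P under 0.05, a larger share than the 21.7% of all loci. DESeq2 called 7 of the 42, also a larger share than its 3765 of the 77398 loci tested. The study sorted these genes partly on these same libraries, so their not passing is not independent evidence. Among the most abundant of them, *TAR-B2*, of a family that makes the auxin precursor, had 264, 338, 303 and 247 normalized counts in *phyC*-null and 839, 343, 878 and 592 in wild type (adjusted P = 0.0182), and *SPL14-like-A*, of the SQUAMOSA PROMOTER BINDING-LIKE family of transcription factors, had 238, 170, 161 and 308 in *phyC*-null and 112, 121, 85.3 and 111 in wild type (adjusted P = 0.0205). In both the groups did not overlap, and both passed when wild-type replicate 2 was left out (adjusted P = 2.18e-04 and 0.00921). *TZP-B*, *IAA-B17* and *BIM-B2* averaged 4220, 875 and 393 in *phyC*-null and 4421, 700.2 and 423 in wild type, with log2 fold changes of -0.07, 0.32 and -0.11. Of 13 other flowering-time genes, 2 were lower and none higher. Both were homoeologues of *VIL2*, related to the vernalization protein VIN3 of Arabidopsis: *VIL-A2* averaged 361 ± 43.2 in *phyC*-null and 797 ± 203 in wild type (log2 fold change -1.14 ± 0.18, adjusted P = 0.00459), and *VIL-B2* averaged 241 ± 23.1 in *phyC*-null and 513 ± 130 in wild type (-1.09 ± 0.18, adjusted P = 0.00555). Both passed by a narrow margin, and they missed the threshold when any 1 of 6 libraries was left out, with adjusted P of up to 0.0314. In experiment 2 *VIL-A2* and *VIL-B2* were again lower and passed (log2 fold changes of -0.97 and -0.92, adjusted P = 0.0025 and 0.00675). Of 5 cold-tolerance genes, 1 was higher: the cold-regulated *WCOR15-A* had 264, 915, 1843 and 690 in *phyC*-null and 14.8, 39.2, 12.3 and 15.3 in wild type (5.48 ± 0.59, adjusted P = 3.15e-04). Its mutant libraries differed among themselves, and the lowest of them was still above every wild-type library.

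Called loci were unevenly spread over the chromosomes. On 1B and its scaffolds, 160 of 4985 tested loci passed (3.21%), of which 78 were higher and 82 lower, against 1113 of 72413 elsewhere (1.54%), of which 481 were higher and 632 lower. Chromosome 1B thus held 12.6% of called loci and 6.44% of tested loci. The other 13 chromosomes had from 1.23% (2B) to 2.23% (7B) of their loci called. Leaving out wild-type replicate 2 gave 332 called loci on 1B and 3394 elsewhere, and leaving out *phyC*-null replicate 4 gave 81 and 371. Of the 160 calls on 1B, 76 (47.5%) were kept in every fit that left out a library, against 327 (29.4%) of the 1113 elsewhere.

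**Figure D2:**
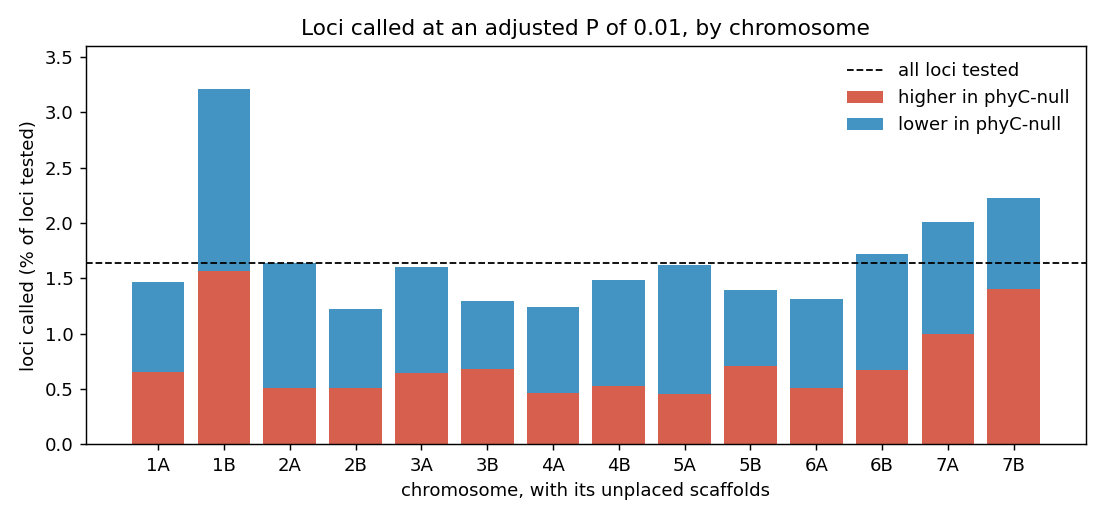
Percentage of tested loci called at an adjusted P of 0.01, per chromosome with its unplaced scaffolds, split into loci higher and lower in *phyC*-null, with a dashed line at the 1.64% of all loci. Chromosome 1B reaches 3.21% and 7B 2.23%.

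Along 1B the called loci were dense in 1 stretch. Between 120 and 200 Mb of the draft chromosome, a stretch chosen after the values were seen, 66 of 890 tested loci passed (7.42%), and over the rest of the placed chromosome 43 of 2943 passed (1.46%). The densest 10-Mb window, from 160 to 170 Mb, had 16 of 145 (11%). Of 713 loci on unplaced 1BL scaffolds 38 passed, and of 439 on 1BS scaffolds 13 passed. Over all of 1B and its scaffolds, the median absolute log2 fold change of called loci was 2.23, against 1.63 elsewhere. At 44 of the 160 loci (27.5%) 1 genotype had at most 5% of the level of the other, against 159 of 1113 (14.3%) elsewhere. Chromosomes 7B (2.09 and 24.5%) and 7A (1.97 and 21.1%) came closest to 1B in these values. Of the 44 near-absent transcripts of 1B, 20 were near 0 in *phyC*-null and 24 in wild type.

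Besides *GATA-B1*, large differences on 1B came from loci with no gene name in the sources used here, of which the 5 largest in each direction with non-overlapping groups and a higher mean of at least 50 are given. td-k31_contig_38235, on a 1BL scaffold (137 to 4302), had 542, 400, 343 and 390 normalized counts in *phyC*-null and 1.23, 2.18, 0 and 0 in wild type, a ratio of 481 with a 95% counting interval of 164 to 2335 (exact, counting error only). td-k41_contig_25101 (1B:138989551-138991275) had 323, 253, 285 and 292 in *phyC*-null and 0, 0, 2.24 and 1.27 in wild type, and its neighbour td-k55_contig_23045 (1B:138987153-138987905) had 119, 116, 113 and 92.7 in *phyC*-null and 1.23, 0, 1.12 and 0 in wild type. td-k31_contig_45232 (1B:130340848-130342262) had 40.7 to 69.4 in *phyC*-null and no read in any wild-type library. Setting wild type to 3 reads over the group makes it 64-fold higher, and the lower 95% counting limit of its ratio was 51.7. Traes_1BL_D34C62E8F had 309, 175, 142 and 223 in *phyC*-null and 0, 0, 1.12 and 2.55 in wild type, with *phyC*-null replicates 1 and 4 above replicates 2 and 3. All 5 transcripts were present in every mutant library.

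In the other direction, td-k21_contig_49894 (1B:149068916-149069521) had 0, 2.51, 0 and 0 normalized counts in *phyC*-null and 132, 240, 127 and 169 in wild type. td-k63_contig_81171 (1B:198367824-198370277) had 4.61, 4.18, 1.84 and 2.65 in *phyC*-null and 226, 205, 169 and 208 in wild type (log2 fold change -5.85 ± 0.26, adjusted P = 5.30e-07). contig80667, on a 1BL scaffold, had 8.46, 22.6, 10.1 and 10.6 in *phyC*-null and averaged 285 ± 15.9 in wild type (-4.45 ± 0.27, adjusted P = 2.90e-06). These transcripts were present in every wild-type library and low in every mutant library, the reverse of the loci above, though contig80667 was not near 0 in *phyC*-null replicate 2. The 2 others named by the same rule, td-k51_contig_85791 and td-k45_contig_49294, averaged 0.848 and 1.53 in *phyC*-null and 54.3 and 77.5 in wild type (log2 fold changes of -5.81 and -5.59).

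**Figure D3:**
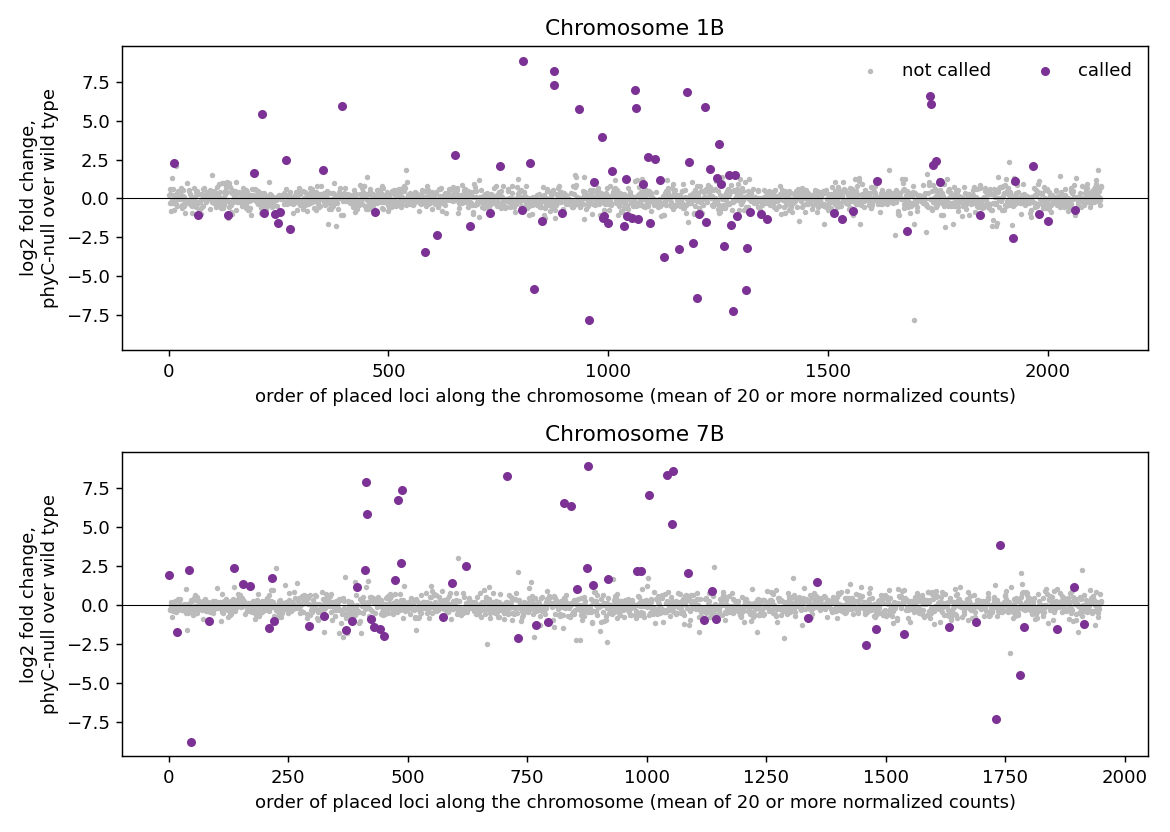
Log2 fold change, *phyC*-null over wild type, of placed loci with a mean of at least 20 normalized counts, in their order along chromosomes 1B (above) and 7B (below), with called loci in purple and the others in grey. On 1B called loci crowd past the middle of the order in both directions, and on 7B the largest changes are mostly positive.

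Chromosome 7B stood apart in another way. Of its 110 called loci 69 were higher in *phyC*-null (62.7%), against 43.9% over all called loci, and 23 were near 0 in wild type. The 19 placed ones of these 23 lay between 37 and 157 Mb. From 50 to 160 Mb, a stretch chosen after the values were seen, 46 of 1147 tested loci passed (4.01%), 36 of them higher, and over the rest of placed 7B 33 of 2180 passed (1.51%), 12 of them higher. Of the 8 largest increases outside 1B, among called loci outside the gene lists with non-overlapping groups and a higher mean of at least 50, 6 came from this chromosome.

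The 23 loci of 7B were not even across the 4 mutant libraries. Traes_7BS_94E6E7075 (7B:153340796-153342688) had 268, 149, 142 and 337 normalized counts in *phyC*-null and 1.23, 0, 1.12 and 0 in wild type. td-k25_contig_34040 (7B:67089945-67094750) had 1159, 525, 570 and 1119 in *phyC*-null and 6.16, 3.27, 4.49 and 6.37 in wild type (log2 fold change 7.36 ± 0.39, adjusted P = 1.51e-06). td-k21_contig_43778 (7B:100933326-100936890) had 183, 80.2, 68.8 and 169 in *phyC*-null and at most 1.12 in wild type. In each, replicates 1 and 4 were above replicates 2 and 3, and this order held at 22 of the 23 loci, with a median ratio of 1.98 between the summed pairs. The same order held at 28 of 86 loci of other chromosomes that were near 0 in wild type, where the median ratio was 1.04. KukriC18099_3 (7B:146024371-146027145) was the exception on 7B, with 106, 86.1, 89 and 87.4 in *phyC*-null and at most 1.12 in wild type. td-k63_contig_6444_td-k45_contig_7522, described as tropomyosin-like, had 238, 140, 159 and 259 in *phyC*-null and 1 read in wild type, and td-k31_contig_18043 had 139, 66, 66.1 and 122 in *phyC*-null and 1 read in wild type.

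**Figure D4:**
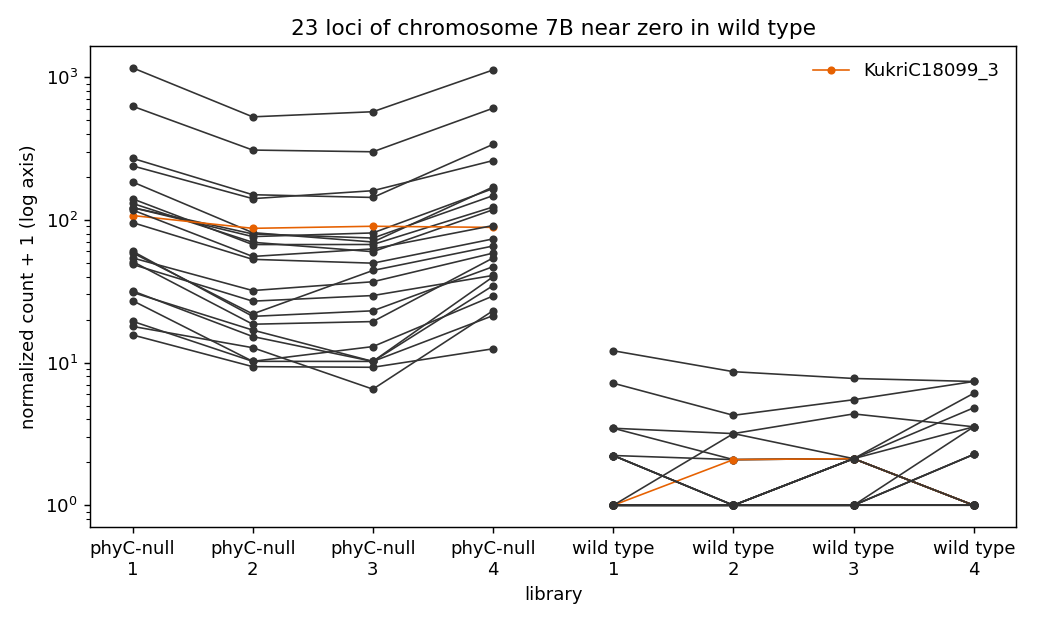
Normalized counts plus 1 (log axis) of the 23 called loci of chromosome 7B that were near 0 in wild type, 1 line per locus, with the 4 *phyC*-null libraries on the left and the 4 wild-type libraries on the right. In 22 of 23 loci *phyC*-null replicates 1 and 4 are above replicates 2 and 3, and KukriC18099_3 (orange) is level.

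In experiment 2, 17 of these 23 loci were not tested, with at most 3 reads in any library of either genotype. KukriC18099_3 was the only 1 of the other 6 that passed there, with 94.8, 95.5, 90.5 and 98.2 normalized counts in *phyC*-null and 1, 0, 0.931 and 1.21 in wild type (adjusted P = 2.07e-07). Elsewhere in the genome, 54 of 86 loci near 0 in wild type passed in experiment 2 as well. At those 17 loci only the *phyC*-null libraries of experiment 1, among the 16 *PHYC* libraries, held more than a few reads. The order of *phyC*-null replicates 1 and 4 above 2 and 3 was picked after the values were seen. Among loci with a mutant mean of 20 or more, it held by at least 1.5 times in sum at 35 of 91 called loci of 7B (38.5%). It held at 4.8% of all 2792 tested loci of 7B. Over all chromosomes, 7B included, it held at 85 of 1016 called loci (8.37%) and at 3.58% of all loci.

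The other 2 of these 8 increases were at td-k63_contig_30356 (2B:115098471-115100026), with 232, 56.0, 73.4 and 142 normalized counts in *phyC*-null and at most 1.23 in wild type, and at td-k45_contig_47881 (5B:16995504-16997952), described as an NHL repeat protein, with 122 to 142 in *phyC*-null and at most 2.47 in wild type. The first was uneven and the second even among the mutant libraries. Neither had enough reads to be tested in experiment 2.

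By the same rule, the 8 largest decreases outside 1B and the gene lists were near 0 in all mutant libraries. isotig15495 (7B:3557733-3558399) had 0, 3.34, 0.918 and 0.883 normalized counts in *phyC*-null and 451, 879, 452 and 762 in wild type (log2 fold change -8.83 ± 0.46, adjusted P = 1.51e-06). Traes_2AS_315383305, on a 2AS scaffold, had 3.08, 13.4, 3.67 and 2.65 in *phyC*-null and 630 or more in wild type (-7.01 ± 0.36, adjusted P = 1.37e-06), and Traes_2AS_7E47A2541, on another 2AS scaffold, averaged 1.29 ± 0.542 in *phyC*-null and 299 ± 110 in wild type (-7.74 ± 0.42, adjusted P = 1.56e-06). td-k55_contig_4494_td-k31_contig_5074, on a 5AS scaffold, had 2 reads in *phyC*-null and 162 to 263 normalized counts in wild type. The other 4, td-k51_contig_36191 and Traes_7AS_A51CFDF26 on 7A, td-k61_contig_53121 on 2B and td-k55_contig_76148 on 3A, had at most 3 reads over the mutant group and averaged 54.7 to 100 in wild type. All 8 were at 0 to 13.4 in the mutant libraries.

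The 5 most abundant called loci outside 1B were all lower in *phyC*-null by close to 1 on the log2 scale. Traes_5BL_4B280E015 (5B:246472656-246473567) averaged 41808 ± 5807 in *phyC*-null and 83192 ± 12864 in wild type (log2 fold change -0.99 ± 0.16, adjusted P = 0.00459). Traes_7BS_B0481B1EE, isotig09905, Traes_5AL_874668E31 and Traes_2AS_6B8CE04FD had log2 fold changes of -1.05, -1.02, -0.95 and -1. All 5 missed the threshold when *phyC*-null replicate 4 was left out, with adjusted P of 0.0174 to 0.0484. In experiment 2 their changes were smaller, from -0.13 to -0.74, and none passed.

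The gene descriptions used here came from parts of the study's tables that list loci called in *phyB*-null but not firmly in *phyC*-null, so the described loci were selected partly on these libraries. They could be matched to 2015 tested loci, of which 112 (5.56%) passed here, 43 higher and 69 lower. The families that follow were picked after their values were seen. Of 12 loci described as aquaporins, the water channels of cell membranes and vacuoles, 4 were lower and none higher. The plasma membrane aquaporin Traes_5BL_CC5BEE88D had 294, 555, 588 and 465 normalized counts in *phyC*-null and 1183, 1655, 1569 and 2855 in wild type (log2 fold change -1.93 ± 0.28, adjusted P = 0.00242), but its log2 fold change was 0.44 in experiment 2 and did not pass there (interaction adjusted P = 0.0112). The vacuolar Traes_4BL_FBA9B0C69 averaged 1759 ± 183 in *phyC*-null and 3822 ± 799 in wild type (-1.12 ± 0.17, adjusted P = 0.00281). Of 5 SWEET loci, which encode sugar transporters, 2 were lower and none higher: Traes_6AL_58B6B7319 on 6A averaged 560 ± 72.5 in *phyC*-null and 1201 ± 244 in wild type, and td-k55_contig_14929 on 6B averaged 184 ± 18.7 in *phyC*-null and 547 ± 166 in wild type.

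Of 3 loci described as metacaspases, proteases that take part in programmed cell death in plants, 2 were higher and 1 did not pass. Traes_4BL_5F08C2BBF had 1664, 2198, 2049 and 1444 normalized counts in *phyC*-null and 127, 18.5, 87.5 and 21.6 in wild type (log2 fold change 4.85 ± 0.50, adjusted P = 2.16e-04), and Traes_5AL_DCAB39442 averaged 798 ± 118 in *phyC*-null and 75.1 ± 37.0 in wild type (3.40 ± 0.32, adjusted P = 1.13e-04). All 3 loci described as S1-type nucleases, which degrade RNA and single-stranded DNA, were lower and came from 3A. Traes_3AS_E61C3A374 (3A:6435297-6436114) had 657, 333, 335 and 585 in *phyC*-null and 3236, 4281, 3256 and 4367 in wild type (-2.99 ± 0.24, adjusted P = 3.06e-05). The other nuclease loci had log2 fold changes of -2.65 and -2.64, and their models are short and similarly described. The study counted only uniquely mapped reads, so no read was counted at more than 1 locus. Whether reads of 1 copy were placed at another was not tested. As on 7B, mutant replicates 1 and 4 were the higher ones at Traes_3AS_E61C3A374.

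Of 6 loci described as *VRN1*-like or SOC1-like MADS-box factors, 2 were higher, 1 was lower (Traes_5BL_5D2D22E67, given above) and 3 did not pass. The higher ones were the SOC1-like Traes_6AS_D6ABA1D79 and Traes_6BS_43B59D772, from matching parts of 6A and 6B. They had 498 ± 32 and 197 ± 31.6 normalized counts in *phyC*-null and 143 ± 62.3 and 61.6 ± 21.6 in wild type (log2 fold changes of 1.80 and 1.68). In experiment 2 their log2 fold changes were 0.53 and 0.43, and neither passed. SOC1 is a flowering integrator in Arabidopsis. Of 5 loci described as acid invertases, which split sucrose, 2 on 6BS scaffolds were higher by 1.78 and 1.71 on the log2 scale, at 47.0 and 56.3 in *phyC*-null and 13.5 and 17.1 in wild type, and had log2 fold changes of -0.55 and -0.50 in experiment 2, where neither passed. Traes_7BS_E337E82FB, described as HD1, the rice form of CONSTANS, was higher, at 56.1 ± 6.16 in *phyC*-null and 10.2 ± 6.69 in wild type (2.46 ± 0.35, adjusted P = 0.00209). Of the 3 loci described as response regulators or CO-like factors, the other 2 were lower: Traes_1AL_2EE300C85, described as PRR37-like, with 56.1, 74.4, 80.8 and 82.1 in *phyC*-null and 196, 204, 203 and 190 in wild type (-1.43 ± 0.17, adjusted P = 5.27e-04), and Traes_5AL_6CC4BFBD8, described as ARR8, by 1.15 on the log2 scale. Of 8 loci described as calmodulins, calcium-binding proteins, 2 were lower by 0.94 and 1 on the log2 scale, and of 3 salicylate or benzoate methyltransferase loci 2 were lower, as were 2 of 3 lipid-transfer protein loci. Of the 25 called loci in these families, 8 passed in every fit that left out a library, among them both metacaspases, the 3 nucleases and the *VRN1*-like locus, and 16 missed the threshold without *phyC*-null replicate 4, among them the 4 aquaporins and both SOC1-like loci. In experiment 2, 6 of the 25 passed in the same direction, and 5 had the opposite sign, namely the aquaporin Traes_5BL_CC5BEE88D, both invertases and 2 of the nucleases.

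Experiment 2 has its own wild-type libraries, so it repeats the comparison on other plants in another chamber. There, 781 of 75109 loci passed (1.04%). Of the 1273 loci called in experiment 1, 1226 were tested in experiment 2, 1132 of these (92.3%) had the same direction, and 343 passed in the same direction, which is 26.9% of the calls of experiment 1 and 43.9% of those of experiment 2. The share that passed in both was 46.2% on 1B (74 of 160) and 24.2% elsewhere (269 of 1113). It was 6.60% of the 212 calls under 2-fold, 18.5% of the 531 between 2-fold and 4-fold, and 43.6% of the 530 over 4-fold. For the loci called in experiment 1 the median change in the same direction was 0.72 on the log2 scale in experiment 2, and their median absolute change was 1.69 in experiment 1, the set in which they were selected.

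**Figure D5:**
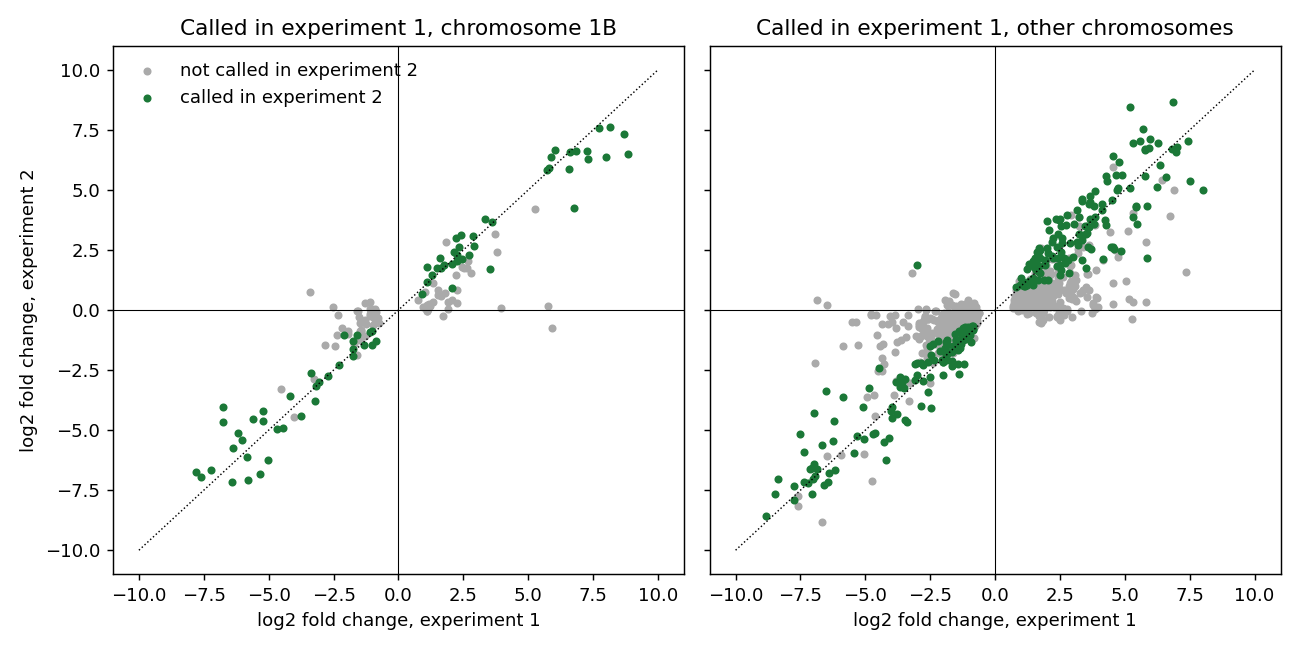
Log2 fold change (*phyC*-null over wild type) in experiment 1 on the x axis and in experiment 2 on the y axis, for loci called in experiment 1 on chromosome 1B (left) and elsewhere (right), with loci called in experiment 2 in green, the others in grey and a dotted line of equal change. Of 1226 loci tested in both experiments, 1132 had the same direction.

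Several flowering genes passed again in the same direction. The study took these genes, though not *PPD-A1*, and the miR5200 precursors from loci that passed in both of its experiments. Their passing again is thus not independent evidence. In experiment 2 the log2 fold changes were -7.03 for *FT-A1*, -6.60 for *FT-B1*, -2.79 for *VRN-A1*, -5.11 for *PPD-B1*, -6.68 for *GATA-B1* and 3.17 for *CO-A1*, and all passed. *FT-B3* and *TaAGL33-A*, whose calls in experiment 1 depended on single libraries, passed there too (-2.62 and 1.75, adjusted P = 0.00171 and 0.00832). *PPD-A1* averaged 818 ± 161 in *phyC*-null and 1056 ± 139 in wild type there and again did not pass (adjusted P = 0.245). The miR5200-A and miR5200-B precursors were higher by 3.80 and 2.25 on the log2 scale. *GI-B*, at -2.65, changed more than in experiment 1, but the difference did not pass (interaction adjusted P = 0.178).

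The difference between the experiments was itself tested, as a genotype by experiment interaction over the 16 *PHYC* libraries. It passed at 14 of 81574 loci (0.0172%), 5 of them on 1B and 11 of them called in experiment 1, while 8419 had an unadjusted P under 0.05 and DESeq2 called 158. Traes_1BS_C012FD5DC (1B:152145370-152148989) had 248, 366, 365 and 317 normalized counts in *phyC*-null and 23.4, 21.8, 15.7 and 21.6 in wild type in experiment 1, but 23, 18.0, 24.9 and 14.9 in *phyC*-null and 21, 15.3, 20.5 and 20.6 in wild type in experiment 2 (interaction adjusted P = 4.72e-06). Traes_1BL_65D58F997, on a 1BL scaffold, averaged 282 ± 12.4 in *phyC*-null and 5.07 ± 2.16 in wild type in experiment 1, and 2.94 in *phyC*-null and 2.42 in wild type in experiment 2. At these 1B loci the transcript was high in the mutant libraries of experiment 1 only, as at the 7B loci.

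At other loci the genotypes were apart in 1 experiment and close in the other. contig79538, on a 3AS scaffold, averaged 70.0 ± 15.6 normalized counts in *phyC*-null and 80.3 ± 9.98 in wild type in experiment 1, and 69.3 in *phyC*-null and 3.5 in wild type in experiment 2. Traes_1BL_46A3D7BAD and Traes_1BS_85C42AB87 were lower in *phyC*-null in experiment 1 (log2 fold changes of -2.52 and -3.42) and did not pass in experiment 2. td-k25_contig_56011_td-k55_contig_83350 (3B:529618693-529620246) averaged 3.15 ± 1.60 in *phyC*-null and 91 ± 24.6 in wild type in experiment 1, and 55.3 in *phyC*-null and 66.3 in wild type in experiment 2. The nuclease Traes_3AS_E61C3A374, lower in experiment 1, averaged 3156 in *phyC*-null and 3015 in wild type in experiment 2 (interaction adjusted P = 0.00241).

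A single locus was called in opposite directions. isotig28124 (2A:14977490-14979142) had 10.8, 7.52, 12.9 and 11.5 normalized counts in *phyC*-null and 65.3, 177, 41.5 and 59.9 in wild type in experiment 1 (log2 fold change -3 ± 0.45, adjusted P = 0.00299), and 77.6, 53.1, 89.1 and 61 in *phyC*-null and 16.0, 25.4, 25.1 and 8.48 in wild type in experiment 2 (1.87, adjusted P = 0.00368). The groups did not overlap in either experiment. The abundant loci Traes_6AL_30768AD47, Traes_1BS_5ACFA11B3 and Traes_7AL_5262BD5AE were lower in experiment 1 by 0.76 to 1.13 on the log2 scale and had log2 fold changes of 0.04, 0.05 and 0.07 in experiment 2, and their interactions did not pass.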

How the data were processed

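RNA of the third leaf was sequenced as unstranded single-end reads. The authors trimmed the reads, aligned them with GSNAP to the draft bread wheat assembly with gene models of transcripts, dropped low mapping qualities and counted reads per locus with HTSeq; the tool names also stand in the submitters' processing notes. The deposited values are raw counts per locus, with no normalization. Positions are given on that assembly, counted from 1. Without strand, reads of overlapping or antisense genes cannot always be told apart. Reads of near-identical homoeologues cannot always be told apart either, and only uniquely mapped reads were counted.

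Counts were scaled with median-of-ratios factors and tested with the quasi-likelihood test of edgeR 4.0.16 in R 4.3.3 on loci that reached 3 reads in 2 or more of the 8 libraries. Benjamini-Hochberg adjusted P of 0.01 was the threshold. SE is the log2 fold change divided by the square root of F. The study itself required DESeq and edgeR together, which was run as an alternative with DESeq2 1.42.0 and the edgeR exact test. Normalized counts are counts divided by size factors, set separately in each experiment, so levels are compared only within one. The interaction was fitted over 16 libraries. The script was tested on simulated data. Figures were drawn with matplotlib 3.10.9.

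The members and gene lists were chosen with earlier results of these data known. Singly named were all genes of the flowering, *phyC*-only, microRNA and phytochrome lists; the 8 largest rises and 8 largest falls outside 1B and 5 each on 1B, among called loci outside the gene lists whose groups did not overlap and whose higher mean was at least 50; the 5 most abundant called loci; 5 by interaction; and 4 by opposite sign. Libraries are biological replicates per the study's methods.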

Additional observations from a re-analysis of the deposited data

Results flagged for a closer look

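In 15 of 175 groups of 4 libraries with a mean of at least 20 normalized counts, the farthest library was past the 95% critical value of Dixon's test, which chance passes in about 5% of groups. Among *phyC*-null libraries, replicate 1 stood apart for the photosystem II 10 kDa transcript (*PSII-10kDa-A*) at 327, against 2.75 to 10.6 in the others, for *ARF-B17* at 594, against 382 to 396, and for KukriC18099_3 at 106, against 86.1 to 89. *phyC*-null replicate 2 stood apart for the aquaporin Traes_2AL_66220D19D at 6124, against 5490 to 5564, and replicate 4 for Traes_5BL_42BEB52D1 at 1553, against 777 to 868. Among wild-type libraries, replicate 1 stood apart for miR156g-A at 185, against 118 to 123, and for td-k55_contig_4494_td-k31_contig_5074 at 263, against 162 to 179. Wild-type replicate 2 stood apart for *WCOR15-A* at 39.2, against 12.3 to 15.3, for isotig09905 at 38649, against 52507 to 53856, and for td-k41_contig_82066 at 132, against 201 to 214. Wild-type replicate 4 was high for *FUL-A2* at 902, against 271 to 328, for Traes_1AL_8FA3E9154 at 1561, against 963 to 1019, and for Traes_3AL_7ED7916BE at 4218, against 3349 to 3464, and low for *GI-B* at 452, against 643 to 679, and for Traes_3AS_2041E9D3E at 16.6, against 24.7 to 26.2.

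The genotype effect differed between the experiments at 14 loci by the interaction test. The log2 fold change of experiment 1 minus that of experiment 2 was 3.86 for Traes_1BS_C012FD5DC, 5.64 for Traes_1BL_65D58F997, 6.67 for KukriC5014_2 on 1B, 3.26 for Traes_7BL_3AE04C588, 4.28 for Traes_5AL_8D5A83BF8 and 3.67 for Traes_5BL_42BEB52D1, all of which were higher in *phyC*-null in experiment 1. It was -2.65 for Traes_1BL_46A3D7BAD, -4.16 for Traes_1BS_85C42AB87, -4.88 for isotig28124, -3.05 for Traes_3AS_E61C3A374 and -4.55 for td-k25_contig_56011_td-k55_contig_83350, all of which were lower in *phyC*-null in experiment 1. It was -4.39 for contig79538, -4.09 for Traes_3AS_2041E9D3E and 3.02 for Traes_3AS_CFDB631D5, which did not pass in experiment 1.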

How the results depend on the processing

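The number of called loci (1273 in all, 1113 outside 1B and 160 on 1B) stayed within 1.5 times under TMM or upper-quartile scaling, a stricter filter on low counts and an added 2-fold minimum. It was 3765, 3438 and 327 with DESeq2, 3759, 3429 and 330 with the edgeR exact test, 3238, 2946 and 292 with both required, 4448, 4074 and 374 at an adjusted P of 0.05, 2542, 2301 and 241 with no filter on low counts, and 2847, 2575 and 272 in 1 fit of 16 libraries. Library totals without scaling factors, added after seeing the data, gave 2291, 2051 and 240. Leaving out 1 library gave 452 to 3726 in all, 371 to 3394 outside 1B and 81 to 332 on 1B, lowest without *phyC*-null replicate 4 and highest without wild-type replicate 2, and no called locus changed sign. The interaction count of 14 became 158 with DESeq2 and 12 to 39 with 1 library left out, with 39 without wild-type replicate 1 and 31 without wild-type replicate 2. The cause of these shifts was not tested. Nothing in the labels ties equal replicate numbers, and the main test did not pair them. Deviations of equally numbered libraries correlated at 0.0647, -0.18, 0.169 and -0.18 over 42428 loci. The means for unequal numbers were -0.0642, 0.0914, 0.00246 and 0.0109. With 4 libraries per group, these values cannot settle whether the numbers pair the samples. With the replicate number as a block, 742, 640 and 102 loci passed, the interaction count was 12, 16 of 114 named loci missed the threshold, and the log2 fold change of *PPD-A1*, which did not pass, was 0.002. Log2 fold changes of 5 loci that did not pass changed sign when a library was left out: *PSII-10kDa-A*, which rests on *phyC*-null replicate 1, ranged from -0.07 to 4.19, *PPD-A1* from -0.538 to 0.052, *ARF-B17* from -0.29 to 0.16, *bHLH47-like2-A* from -0.043 to 0.123 and Traes_3AS_CFDB631D5 from -0.15 to 0.24. Low counts limit what could be seen: a locus with 3 reads in fewer than 2 libraries was not tested.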

Other observations

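Of 1266 transcripts with exactly 2 tested loci, on the A and the B chromosome of the same group, at least 1 locus was called at 42. Both loci were called at 4, in the same direction at all 4. Over all loci tested 1.64% were called, and whether these pairs depart from that share was not tested. Another dense group of called loci lay at the start of chromosome 2A, a stretch picked after its values were seen. There, 31 of 425 tested loci of the first 10 Mb passed (7.29%), 16 higher and 15 lower in *phyC*-null, and at 7 of them 1 genotype was near 0.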
